A study of Danio rerio with 4 samples.

Results

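The miR-200 family in whole zebrafish larvae was described across 4 small RNA libraries. Its members were all listed entries named miR-200, miR-141 or miR-429, whatever their letter or arm, which gave 6 of the 245 zebrafish miRNAs in the deposited table, namely miR-200a, miR-200b, miR-200c, miR-141, miR-429a and miR-429b. The rule used no measured value. Wild-type larvae of the Tuebingen strain were collected at 6 dpf (days post fertilization), and RNA of pooled whole larvae was sequenced as 1 library for each of 4 conditions. These were a blank control labelled wildtype, a DMSO vehicle control, and the flame retardant BDE47 (2,2',4,4'-tetrabromodiphenyl ether) at 5 μg/L and 500 μg/L, both given in DMSO and called low and high BDE47 below. The label of the blank control does not state whether it held DMSO. With 1 library per condition no difference has a replicate check, and every value below describes these libraries. No test between conditions was possible.

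The miR-200 family is a set of small RNAs of epithelia, best known for repressing the Zeb transcription factors and so favouring the epithelial over the mesenchymal state. In zebrafish, family members are known from the olfactory epithelium, where they take part in the differentiation of sensory neurons, and from ionocytes of the skin, where they act in the response to osmotic stress through the adaptor protein Nherf1. A miRNA selects its target mRNAs mainly through its seed, a short stretch near the 5' end. In vertebrates miR-200a and miR-141 share a seed, and miR-200b, miR-200c and miR-429 share another, so the family holds 2 groups of overlapping targets. The genes also fall into 2 clusters. In the RefSeq annotation of the GRCz12tu assembly, where all 6 matched a gene, mir200b, mir200a and the miR-429a gene (symbol dre-mir-429) directly neighbour each other on one chromosome (here the first cluster), and mir429b, mir141 and mir200c do so on another (the second cluster). Going by these names, each cluster therefore contains both seeds. The sequences of the 6 entries were not examined here, so the seed groups below follow the names.

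The listed miRNAs held between 8858169 and 10357704 reads per library. The values are normalized counts, that is, reads divided by 1 size factor per library, which lay between 0.933 and 1.09. The family took 52016 reads in the blank library, 65757 in the vehicle library, 62391 at low BDE47 and 62924 at high BDE47, or 0.587%, 0.648%, 0.602% and 0.677% of the listed reads. A read covers a whole mature miRNA, so no correction for length was made between members. How well each sequence was captured in library preparation was not measured, so levels of different miRNAs are compared as reads only. Intervals in the text are 95% counting intervals, exact Poisson for a level and exact Clopper-Pearson for a ratio or a share. They hold only the error of counting. PCR can copy a molecule many times, and differences between pools of larvae are not part of them. In RNA of whole larvae, a different number of epithelial cells and a different amount of miRNA per cell cannot be told apart, in either direction.

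The label of an epithelial family was set beside tissue markers in the same libraries. Other epithelial miRNAs were present in all 4 libraries, with 0 of the 4 skin entries (miR-203 and miR-205) and 0 of the 4 entries of sensory epithelium (miR-96, miR-182 and miR-183) at 0. The same larvae held markers of muscle, nervous system, liver and red blood cells, so the table does not show in which cells the family was made. The summed family reached between 28.1% and 31.0% of the summed skin entries and between 5.08% and 5.81% of the summed entries of sensory epithelium. It lay above the summed nervous system entries (miR-9 and miR-124) in every library, at 150% to 181% of their level. The same held for the summed skeletal muscle entries (miR-1, miR-133 and miR-206), at 131% to 142%, and for those of liver and red blood cells. Of the summed gut epithelium entries (miR-192 and miR-194) the family reached only 3.32% to 5.45%.

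miR-429a and miR-200a were the most abundant members. miR-200a, of the first cluster, had 17901 normalized counts in the blank library (17631 to 18175), 19209 in the vehicle library (18950 to 19471), 17835 at low BDE47 (17578 to 18096) and 19714 at high BDE47 (19433 to 19999). The blank and low BDE47 libraries were its low pair, and the other pair was higher. Its neighbour miR-429a had 16031 normalized counts in the blank library, 18998 in the vehicle library, 20278 at low BDE47 and 20930 at high BDE47. The blank library was its lowest library, and with the size factors both BDE47 libraries lay above both controls. As a share of the listed reads, however, low BDE47 (0.200%) lay below the vehicle library (0.204%).

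miR-141, which shares its seed with miR-200a, ranked below both in every library, with 11211 normalized counts in the blank library, 11610 in the vehicle library, 11485 at low BDE47 and 12685 at high BDE47. The first 3 of these lay close together, and the high BDE47 library stood above them. miR-200b had 4768 normalized counts in the blank library, 5145 in the vehicle library, 5441 at low BDE47 and 6178 at high BDE47. miR-200c had 5214 in the blank library, 4711 in the vehicle library, 5279 at low BDE47 and 6204 at high BDE47. For both, the high BDE47 library was the highest, but the lowest was the blank library for miR-200b and the vehicle library for miR-200c. miR-429b was the least abundant, with 653 normalized counts in the blank library (602 to 707), 583 in the vehicle library (538 to 630), 625 at low BDE47 (578 to 676) and 700 at high BDE47 (647 to 755). The intervals of its levels overlapped for every pair of libraries except the vehicle and high BDE47 libraries.

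**Figure D1:**
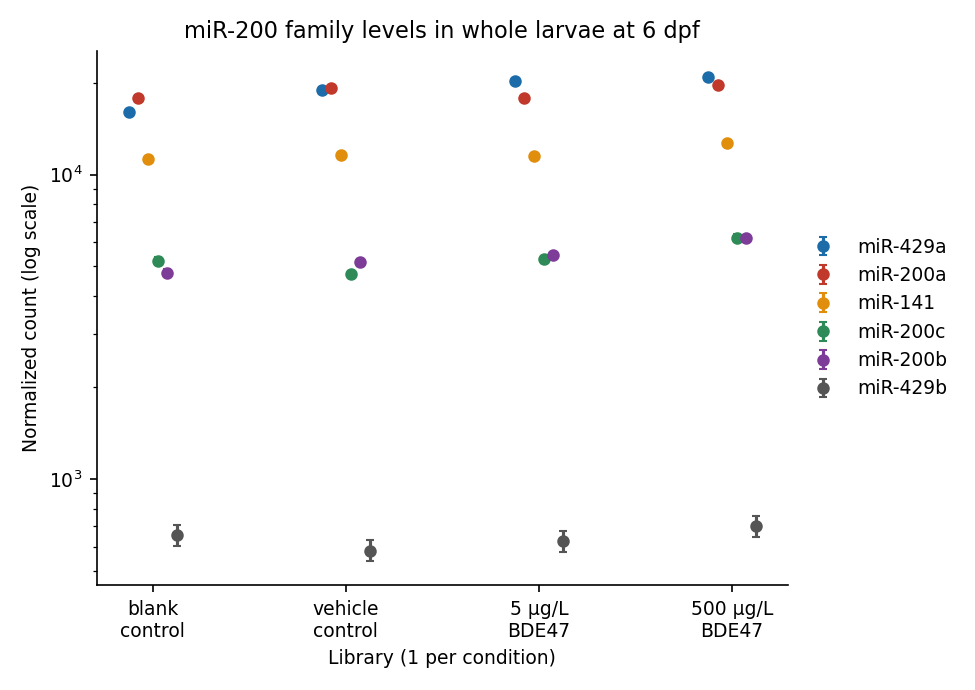
Normalized counts (log scale) of the 6 miR-200 family members in each of the 4 libraries, with bars for the 95% counting interval, which for most members are smaller than the points. miR-429a and miR-200a lie at the top, miR-141 below them, miR-200b and miR-200c close together between 4711 and 6204, and miR-429b at the bottom between 583 and 700.

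The order of levels had 3 fixed steps and 2 places where neighbours exchanged ranks. miR-200a exceeded miR-429a in the blank library with a ratio of reads of 1.12 (1.09 to 1.14), did not differ from it beyond counting error in the vehicle library at 1.01 (0.992 to 1.03), and lay below it at low BDE47, at 0.880 (0.862 to 0.897), and at high BDE47, at 0.942 (0.923 to 0.961). These are neighbouring genes. Their ratio was above 1 in both controls, although the vehicle library interval reached 1, and below 1 in both BDE47 libraries. The vehicle library lay nearer to the high BDE47 library than to the blank library, so the ratio did not set the controls apart as a group. Equality of reads is also no natural boundary, since capture of each sequence was not measured. miR-200b was at 0.914 of miR-200c in the blank library (0.878 to 0.953) and at 1.09 in the vehicle library (1.05 to 1.13). The BDE47 libraries could not be told from equality for this pair, at 1.03 (0.993 to 1.07) and 0.996 (0.960 to 1.03). Below these, miR-141 had 17.2 to 19.9 times the reads of its neighbour miR-429b. Among all 245 miRNAs, miR-429a ranked between 40 and 51, miR-200a between 43 and 47, and miR-429b between 169 and 184.

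**Figure D2:**
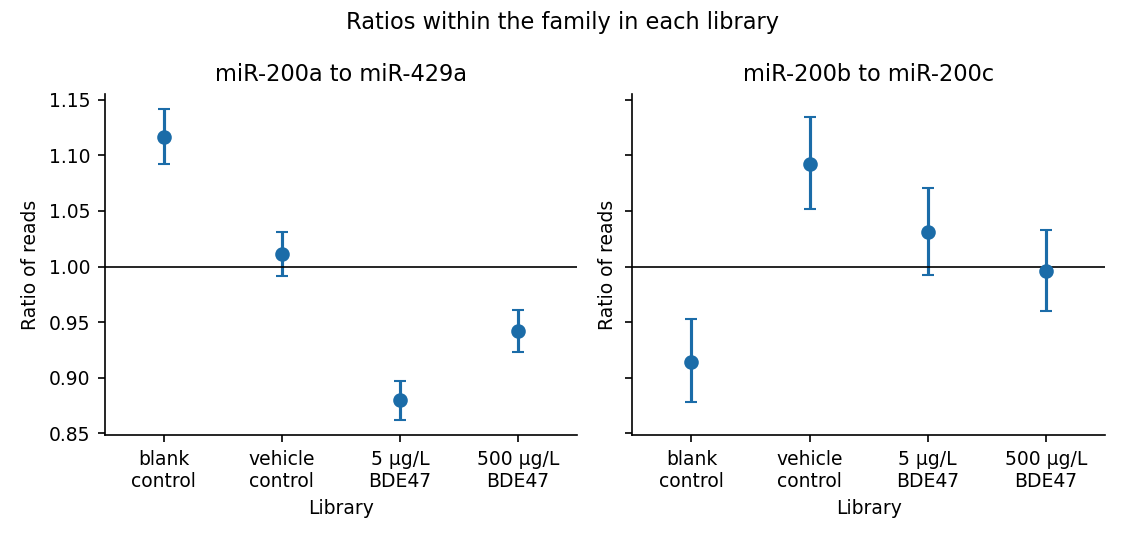
Ratio of reads of miR-200a to its genomic neighbour miR-429a (left) and of miR-200b to miR-200c (right) in each library, with 95% counting intervals and a line at 1. The vertical axes do not start at 0. The left ratio runs from 1.12 in the blank library to 0.880 at low BDE47, and the right ratio lies below 1 in the blank library and above 1 in the vehicle library.

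The comparison of high BDE47 with the vehicle library addresses whether the high concentration came with other miRNA levels than its solvent. All 6 members were higher at high BDE47, by small amounts, and 0 of 6 passed 2-fold, a threshold that 8.97% of the 234 miRNAs compared passed in either direction. The 234 are those whose mean over the libraries reached 10 normalized counts, a filter that all 6 members passed. The summed family was 10.2% higher, at 66412 against 60256 normalized counts (log2 ratio 0.14, interval 0.12 to 0.16). Across all 234 miRNAs, 51.7% were higher at high BDE47 by any amount. Log2 ratios here are of normalized counts after adding 1.

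miR-200c was farthest from the vehicle library at high BDE47, with a log2 ratio of 0.40 (0.34 to 0.45), or 31.7% higher. miR-200b followed at 0.26 (0.21 to 0.32) and miR-429b at 0.26, where only 636 and 663 reads left a wide interval (0.10 to 0.42). miR-429a had a log2 ratio of 0.14 (0.11 to 0.17) and miR-141 of 0.13 (0.092 to 0.16). miR-200a was nearly level, at 0.037 (0.0089 to 0.066). The median over the 6 members was 0.20, beside 0.021 over all 234 miRNAs. Scaled to the total of listed reads in place of the size factors, miR-200a lay below the vehicle library, at -0.039, and the summed family at 0.064. That scale moved the median of all 234 miRNAs by -0.077. On it, 5 of 6 members were above the vehicle library, beside 42.7% of all 234 miRNAs.

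Within the family, the seed groups differed at high BDE47 by more than counting error. The summed miR-200a and miR-141 were 5.13% above the vehicle library (log2 ratio 0.072, interval 0.050 to 0.094). The summed miR-200b, miR-200c, miR-429a and miR-429b were 15.5% above it, at a log2 ratio of 0.21 (0.19 to 0.23), so the counting intervals of both groups did not overlap. By cluster, the log2 ratio was 0.11 (0.092 to 0.13) for miR-200b, miR-200a and miR-429a and 0.21 (0.18 to 0.24) for miR-429b, miR-141 and miR-200c. Single members did not all follow their seed, as miR-429a (0.14) lay close to miR-141 (0.13). The seed groups also differed between the controls. In the blank library against the vehicle library, miR-200a and miR-141 were at -0.082 (-0.11 to -0.059). The other seed group was at -0.14 (-0.17 to -0.12), again without overlap. Whether these differences within the family exceed those between replicate libraries cannot be read from 1 library each.

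At low BDE47, the family sum was 60944 normalized counts, 1.14% above the vehicle library (log2 ratio 0.016, interval 0.00054 to 0.032), and 0 of 6 members passed 2-fold, beside 2.99% of all 234 miRNAs. The members lay on both sides of the vehicle library. miR-200a was lower, with a log2 ratio of -0.11 (-0.14 to -0.078), and miR-141, of the same seed, had a ratio of -0.016 that counting error alone allows (-0.052 to 0.021). The members of the other seed all had positive ratios, 0.16 for miR-200c (0.11 to 0.22), 0.094 for miR-429a (0.066 to 0.12), 0.081 for miR-200b (0.027 to 0.13) and 0.10 for miR-429b, whose interval reached 0 (-0.059 to 0.26). The median over members was 0.087, against 0.019 over all miRNAs. These signs depended on the scaling. With the total of listed reads, which moved the median of all miRNAs by -0.12, the median over members was -0.034. On that scale 1 of 6 members, miR-200c, was above the vehicle library, beside 32.5% of all 234 miRNAs.

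The share of family reads showed the same seed groups without any scaling between libraries. miR-200a and miR-141 together took 52.2% of the family's reads in the blank library (51.8 to 52.6) and 51.1% in the vehicle library (50.8 to 51.5). They took 48.1% at low BDE47 (47.7 to 48.5) and 48.8% at high BDE47 (48.4 to 49.2). Both control libraries were thus above 50% and both BDE47 libraries below it, a gap of a few percent of the family's reads. Equal shares are no natural boundary, since capture of each sequence was not measured. Most of the gap lay in miR-200a, with 32.1% of the family's reads in the blank library, 31.9% in the vehicle library, 29.3% at low BDE47 and 29.7% at high BDE47. miR-141 had 20.1%, 19.3%, 18.8% and 19.1% in the same order. The division by cluster did not set the BDE47 libraries apart from the controls. The miR-200b, miR-200a and miR-429a cluster took 69.4% in the blank library (69.0 to 69.8), 71.9% in the vehicle library (71.6 to 72.3), 71.5% at low BDE47 (71.1 to 71.8) and 70.5% at high BDE47 (70.1 to 70.9), so both BDE47 libraries lay between the controls. These shares were examined after the members' values had been seen. How reads that fit several similar members were assigned is not given in the sources used here, and the part of that assignment in the shares was not tested.

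The blank library shows how far libraries without BDE47 differed. Its family sum was 55778 normalized counts, below the vehicle library by a log2 ratio of -0.11 (-0.13 to -0.095). There, 0 of 6 members and 1.28% of all 234 miRNAs were past 2-fold. The first cluster lay below the vehicle library, with log2 ratios of -0.24 for miR-429a (-0.28 to -0.21), -0.11 for miR-200b (-0.17 to -0.053) and -0.10 for miR-200a (-0.13 to -0.072). The members of the second lay on both sides, with -0.050 for miR-141 (-0.088 to -0.013), 0.15 for miR-200c (0.089 to 0.20) and 0.16 for miR-429b (0.0015 to 0.33). The summed log2 ratios were -0.16 for the first cluster (-0.18 to -0.14) and 0.015 for the second (-0.016 to 0.045).

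**Figure D3:**
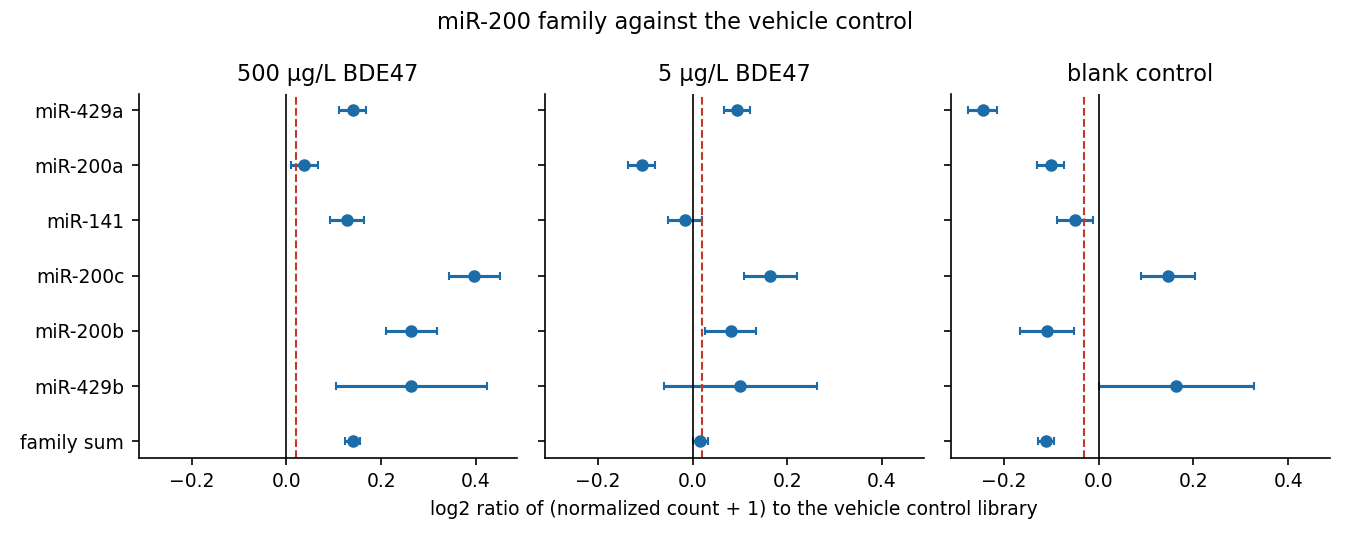
Log2 ratio to the vehicle library of each family member and of their sum, for high BDE47 (500 μg/L, left), low BDE47 (5 μg/L, middle) and the blank library (right), with 95% counting intervals (horizontal bars), a solid line at 0 and a dashed line at the median of all 234 miRNAs. All 6 members lie right of 0 at high BDE47, from 0.037 for miR-200a to 0.40 for miR-200c, whereas both sides of 0 are filled at low BDE47 and in the blank library.

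At high BDE47, 4 of 6 members (miR-141, miR-200b, miR-200c and miR-429b) lay farther from the vehicle library than the blank library did, compared with 70.9% of all 234 miRNAs. For miR-200a and miR-429a, the controls were farther apart than the high BDE47 and vehicle libraries. At low BDE47, 2 of 6 members (miR-200a and miR-200c) lay farther than the blank library, with 57.7% of all miRNAs. The members' counts were thus near or below the shares over all miRNAs.

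All 6 members had their highest level of the 4 libraries at high BDE47, as 31.6% of the 234 miRNAs did. With the total of listed reads as the scale, 5 of 6 did, beside 27.8% of the 234 miRNAs, and miR-200a was the exception. This count was made after the members' values had been seen. The members of a cluster neighbour each other in the genome and family members have similar sequences, so the 6 are not independent observations. Against the blank library, the log2 ratio at high BDE47 ran from 0.10 for miR-429b (-0.061 to 0.26) to 0.38 for miR-429a (0.35 to 0.42), and the summed family was 19.1% higher. Against the low BDE47 library it ran from 0.046 for miR-429a (0.017 to 0.074) to 0.23 for miR-200c (0.18 to 0.29), with the family sum 8.97% higher and 0 of 6 members past 2-fold, beside 1.71% of all miRNAs. miR-429b against the blank library was the only one of these 12 member ratios at high BDE47 whose interval reached 0.

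**Figure D4:**
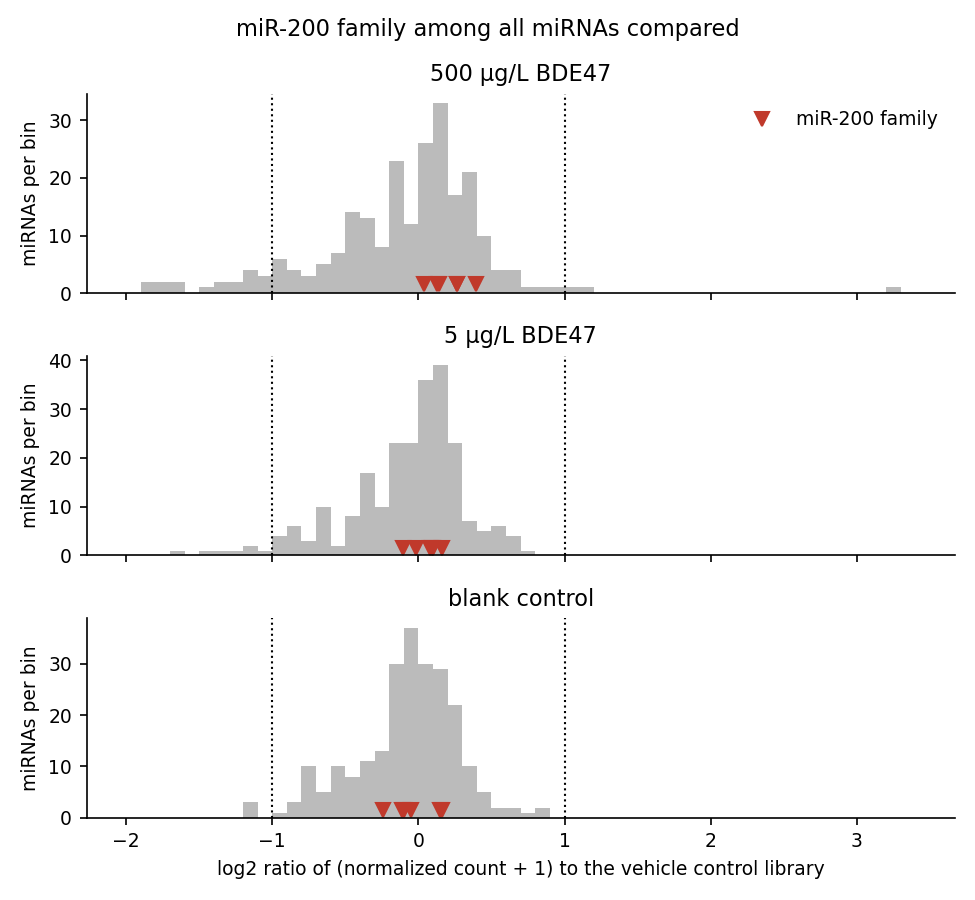
Histograms of the log2 ratios to the vehicle library over the 234 miRNAs compared (bins of 0.1, vertical axis in miRNAs per bin), for high BDE47 (500 μg/L, top), low BDE47 (5 μg/L, middle) and the blank library (bottom). Triangles mark the 6 family members and dotted lines mark 2-fold. The triangles lie within the main body of each histogram, between 0.037 and 0.40 at high BDE47.

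Over the 4 libraries, the ratio of the highest to the lowest level was 1.11 for miR-200a and 1.13 for miR-141, smaller than for most miRNAs, since 6.84% and 11.1% of the 234 had a smaller range. It was 1.20 for miR-429b, 1.30 for miR-200b, 1.31 for miR-429a and 1.32 for miR-200c, where the median miRNA had 1.29. These ranges are with the size factors, and their place among the 234 was not computed with another scaling. As shares of the listed reads, miR-200a ran from 0.176% at low BDE47 to 0.207% in the vehicle library. miR-141 ran from 0.114% at low BDE47 to 0.129% at high BDE47. The 234 were not matched by level, and those with few reads have ranges that hold more counting error than the ranges of miR-200a and miR-141.

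The sums of the other surface and sensory epithelial miRNAs were also highest at high BDE47, while their entries lay on both sides of the vehicle library. The summed skin entries had 198842 normalized counts in the blank library, 199245 in the vehicle library, 199121 at low BDE47 and 214473 at high BDE47, the last 7.64% above the vehicle library. Of the 4 skin entries, 3 were higher at high BDE47 than in the vehicle library, with a median log2 ratio of 0.14. Across all 234 miRNAs, 51.7% were higher. The 3 include miR-205, at a log2 ratio of only 0.021. miR-203b-3p, a miRNA of stratified skin epithelium, had 69340 normalized counts in the blank library, 80099 in the vehicle library, 78028 at low BDE47 and 98676 at high BDE47, and was also highest in the last. miR-203b-5p, from the same hairpin, was highest there too, at 4970 against 4135 in the vehicle library (log2 ratio 0.27). miR-203a had its highest level in the vehicle library (26299, against 20824 at high BDE47), and miR-205, of basal epithelial cells, in the blank library (105482, against 90003). The summed sensory entries were 18.1% above the vehicle library at high BDE47 (log2 ratio 0.24), more than the 10.2% of the miR-200 family. This sum was mostly miR-182-5p, a miRNA of sensory hair cells, with 878149 normalized counts in the blank library, 826354 in the vehicle library, 974084 at low BDE47 and 1007263 at high BDE47. Of the 4 sensory entries, 3 were above the vehicle library at high BDE47, with a median log2 ratio of 0.064, and miR-96 was below it at -0.35 (-0.41 to -0.28). Of the 3, miR-183 was at 0.054 and miR-182-3p at 0.075, where the interval reached 0 (-0.080 to 0.23). Both had their highest level at low BDE47. Their ratios and that of miR-205 were smaller in size than the shift of -0.077 that the total of listed reads gave the median of all 234 miRNAs. The counts of skin and sensory entries were not repeated on that scale. The summed entries of gut epithelium (miR-192 and miR-194), in contrast, went from 1724012 normalized counts in the vehicle library to 1219065 at high BDE47, and all 3 entries were lower. With these, epithelial markers of different organs lay on both sides of the vehicle library. What part the makeup of the larvae had in the family's levels was not tested.

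The 5 miRNAs outside the family whose pattern over the 4 libraries was most like that of the summed family were miR-16c, miR-99, miR-363, miR-26a and miR-133a-3p. Likeness was the root mean square difference of log2 levels, each centred on its own mean over the libraries. It was 0.029 for miR-16c, 0.032 for miR-99, 0.033 for miR-363, 0.040 for miR-26a and 0.044 for miR-133a-3p, against a median of 0.17 over the 228 miRNAs outside the family. miR-16c, the nearest, had 7619 normalized counts in the blank library, 8050 in the vehicle library, 8610 at low BDE47 and 9208 at high BDE47. All 5 had their lowest level in the blank library and their highest at high BDE47, like the family sum that they were chosen to resemble. The family's own members were at distances from 0.035 (miR-141) to 0.11 (miR-200c). Of the 228 miRNAs, 53 were nearer to the family sum than its farthest member, and 16 were nearer than the median member. The pattern was thus also found outside the family. The members are part of the sum, so their own nearness to it is partly built in.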

How the data were processed

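Libraries of 4 conditions were analysed, 1 each, mapped to conditions by their labels. Per the study's methods, low-quality, short and adaptor reads were removed by the authors and the rest was aligned to the zebrafish entries of miRBase. The deposited table holds a normalized signal, which is reads divided by a size factor for each library. The values themselves showed this, as 100% of them were whole multiples of a single step per library (tolerance 0.01 read). Reads could so be recovered for the counting intervals. None of the family's entries names an arm, and 0 value columns were left unused.

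Log2 ratios were taken after adding 1, over the 234 miRNAs whose mean reached 10 normalized counts. A ratio past 2-fold, the fold threshold of the study's methods, was the call, and no p-value is given. Members, lists, alternatives and the naming rule (every member, the skin and sensory lists, and the 5 nearest patterns) were chosen with earlier results of these data known. Two-sided Fisher's exact tests on the reads, with Benjamini-Hochberg adjustment, served as an alternative that compares libraries and not conditions. The code was tested on simulated data. RefSeq (GRCz12tu) gave only names and neighbouring genes. Calculations were done in Python 3.11.15 with scipy 1.17.1, pandas 2.3.3 and numpy 2.4.6, and plots in matplotlib 3.10.9. The RT-PCR and mRNA data were not analysed here.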

Additional observations from a re-analysis of the deposited data

Results flagged for a closer look

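miR-200a and miR-141 lay on opposite sides of the vehicle library at the 2 concentrations of BDE47. miR-200a had a log2 ratio of -0.11 at low BDE47 and 0.037 at high BDE47, a difference of 0.144 on the log2 scale. miR-141 had -0.016 and 0.13, a difference of 0.143. The difference was not tested, since each concentration has 1 library, and the sign of miR-141 at low BDE47 is within counting error. With the total of listed reads, miR-200a lay below the vehicle library at both concentrations, at -0.23 and -0.039. On that scale the members on opposite sides at low and high BDE47 were miR-141 (-0.14 and 0.051), miR-200b (-0.041 and 0.19), miR-429a (-0.027 and 0.063) and miR-429b (-0.020 and 0.19). Set against the blank library, miR-141 at low BDE47 was at 0.035. Which members were flagged thus depended on the scaling and the control.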

How the results depend on the processing

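No paired analysis was possible because each condition has 1 library, and for the same reason none could be left out. Pseudocounts of 0.1 and 10, no filter, a mean of at least 100 normalized counts, and median-of-ratios scaling without the family were run. They left the family sums within counting error and the counts past 2-fold at 0. The medians stayed within the averaged interval bounds of the 2 middle members, which is not a counting interval of the median. Median of ratios moved the median of all 234 miRNAs by only 0.0072 at high BDE47, 0.0016 at low BDE47 and 0.0019 in the blank library. It thus nearly repeated the size factors and could hardly move these values. For the count of members highest at high BDE47, only the 2 scalings were run, a choice made after seeing the data. Median of ratios gave 6 members, beside 32.5% of all 234 miRNAs, and the total of listed reads gave 5, beside 27.8%. With the total of listed reads, the log2 ratio of the family sum to the vehicle library went from 0.14 to 0.064 at high BDE47, from 0.016 to -0.10 at low BDE47 and from -0.11 to -0.14 in the blank library, and the median at low BDE47 from 0.087 to -0.034. Set against the blank library instead, the sum was at 0.25 for high BDE47 and 0.13 for low BDE47, and the median at low BDE47 was 0.026. With the mean of both controls, the sums were 0.19 and 0.071. A fold threshold of 1.5 still gave 0 of 6 members in each comparison. Of all 234 miRNAs, 20.9% passed it at high BDE47, 15.4% at low BDE47 and 13.2% in the blank library. With 6 members, a count of 0 says little beside these shares. Fisher's exact test on the reads, after Benjamini-Hochberg adjustment, placed 6 members under 0.05 at high BDE47, 2 at low BDE47 and 5 in the blank library, where 79.1%, 68.8% and 72.6% of all 234 miRNAs were. It uses shares of listed reads, in which miR-200a was lower at high BDE47. Of 132 alternative values for single members, 101 stayed within counting error and 31 moved, 20 by a change of control and 11 by the total of listed reads. The 101 include both filter settings, which could not move a member's value, and the pseudocounts, which are small beside these counts. They also include median of ratios, which nearly repeats the size factors. The tally is therefore no measure of how stable the values are. In 7 of the 132 the sign changed, 6 of them at low BDE47. Arm ratios were not run, since no member is listed by arm. At depths of 609 to 663 reads, miR-429b is the member whose differences are the least precisely counted.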
